A study of Mus musculus with 14 samples.

Results

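Messenger RNA of the bone morphogenetic protein (BMP), growth differentiation factor (GDF), transforming growth factor beta (TGF-beta) and SMAD gene families was followed in whole mouse testis with and without Glis3, a zinc finger transcription factor. The genes were chosen by a rule on their names, set with earlier results of these data known. Every non-control probe on the array whose gene name began with Bmp plus a number or r, Gdf or Smad plus a number, Tgfb plus a number or r, or Acvr was taken. The brightest probe stood for its gene. This gave 48 genes out of 27962 gene names, measured by 78 probes, with 29 genes resting on a single probe. They comprised 10 BMP ligands, 11 GDF ligands, 3 TGF-beta ligands, 7 type I receptors, 4 type II receptors, 2 co-receptor or receptor-associated genes, 8 SMADs and 3 genes that carry the names without belonging to these classes. All 14 samples were testis total RNA from untreated C57BL/6 pups kept with their mothers: 8 at 1 week of age, with 4 of each genotype (WT and Glis3KO2), and 6 at 4 weeks by the sample labels, with 3 of each, where the series' design text gives 3 weeks. The labels do not describe the Glis3KO2 allele or state whether an RNA sample is 1 animal, so p-values measure the spread between these samples. Each sample was hybridised with a single dye to an Agilent mouse array.

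Ligands of this superfamily bind a complex of type I and type II serine/threonine kinase receptors, and the type I receptor phosphorylates receptor SMADs that enter the nucleus with SMAD4. BMPs and some GDFs signal mainly through SMAD1, SMAD5 and SMAD9, whereas TGF-betas and activins signal mainly through SMAD2 and SMAD3. Signalling through these arms is limited by the inhibitory SMAD6 and SMAD7. In the testis BMP4, BMP8A and BMP8B are known from mouse mutants to act on germ cells, and Sertoli cells, the somatic cells that nurse the germ cells, both make and receive several of these factors.

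Levels are log2 intensity relative to the 75th percentile of the same array, and a difference is Glis3KO2 minus WT, or 4 weeks minus 1 week, of group means, with its standard error (SE). A gene was called when its limma p-value, adjusted by Benjamini-Hochberg over all gene names tested, fell below 0.05. Per array, 74.3% to 86.6% of spots were well above background, and precision is limited by how many arrays there are. At 1 week this share was 76.7% to 86.6% in WT and 74.3% to 78.5% in Glis3KO2. Median intensity before scaling was 229 to 246 in 1-week WT and 153 to 226 in 1-week Glis3KO2. The part of this imbalance in the 1-week differences was not tested. Signal for Glis3 itself passed background at 1 week on 4 of 4 arrays in WT and 0 of 4 in Glis3KO2, which was at least 4.25-fold lower (limma adjusted p = 0.00581). At 4 weeks it passed on 0 of 3 arrays in both genotypes, so it does not check those labels. At 4 weeks the marker genes of meiotic and postmeiotic germ cells were lower in Glis3KO2 (15 of 16 for spermatocytes, 13 of 13 for round spermatids, 11 of 11 for elongating spermatids) and 16 of 18 Sertoli cell markers were higher. The mean log2 level of the Sertoli list ran from 1.00 to 1.09 on WT arrays and from 2.51 to 2.99 on Glis3KO2 arrays, and that of the round spermatid list from 3.10 to 3.29 and from 0.090 to 1.56. In bulk tissue fewer cells of a type and less RNA per cell cannot be told apart, and the part of cell composition in the differences given here was not tested. The 2 ages were hybridised to different slides, so age and slide cannot be told apart.

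At 4 weeks the family differed between the genotypes almost throughout. Of the 41 members that could be tested, 25 were higher and 11 lower in Glis3KO2, which is 87.8% called against 69.2% of all 21338 gene names tested. By direction, the background was 35.1% higher and 34.1% lower. The median difference was 0.89 over the members and 0.026 over all genes. The 3 TGF-beta ligands, the type II receptors for BMP and TGF-beta, the co-receptor Tgfbr3, Smad3, Smad4 and Smad7 were higher, and the oocyte factor Gdf9, Bmp8a, Bmp8b, Smad1, Smad9 and Smad6 were lower. No overlap between the genotypes was seen for 35 members, where the background was 77% (38.6% higher and 38.4% lower). Bmp10, Bmp15, Gdf2, Gdf3, Gdf8, Bmpr1b and Gdf6 were not well above background on 3 arrays of either genotype and were not tested.

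**Figure D1:**
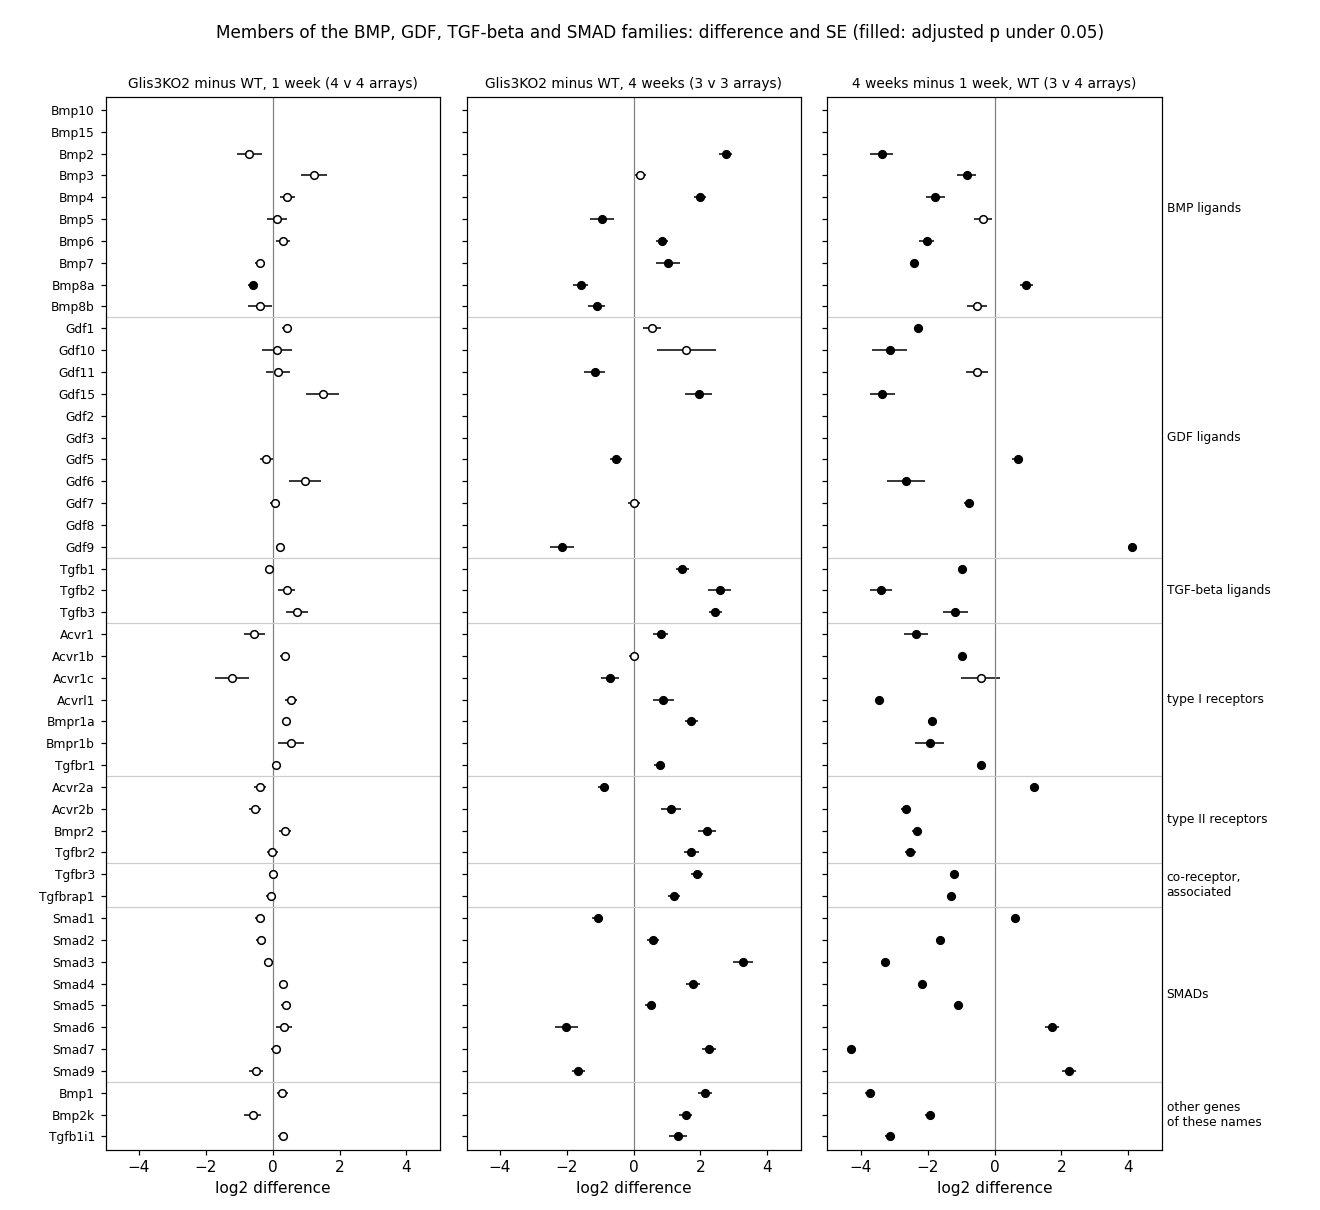
Log2 difference with its standard error for all 48 members, ordered by role from top to bottom, for Glis3KO2 minus WT at 1 week (left) and 4 weeks (middle) and for 4 weeks minus 1 week in WT (right). Filled points had an adjusted p under 0.05, open points did not, and members with no point were too dim to test: 1 member is filled on the left, 36 in the middle and 39 on the right.

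The BMP ligands split into a rising and a falling set at 4 weeks, with 4 higher, 3 lower and 1 not called of 8 tested. Bmp2, a bone-inducing ligand that acts through BMPR1A, had levels of -7.37, -7.87 and -7.77 on the WT arrays, none of them well above background, and of -4.81, -4.76 and -5.14 on the Glis3KO2 arrays, all above it. The genotypes did not overlap, and the difference was at least 3.31-fold (limma adjusted p = 0.000477). Bmp4, which is needed for the founding of the germ line in the embryo, measured -2.94, -3.48 and -3.11 in WT and -1.08, -1.20 and -1.30 in Glis3KO2. All Glis3KO2 arrays stood above all WT arrays, by 1.98 on average (SE 0.18, limma adjusted p = 0.000563). Bmp6 and Bmp7 were higher by 0.85 and 1.02. For Bmp7, the Glis3KO2 arrays spread widely, at 1.66, 0.93 and 0.17, above WT arrays between -0.12 and -0.083, and the call was lost in 6 of 17 alternative analyses.

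Bmp8a and Bmp8b are close paralogs that lie near each other on chromosome 4, and cross-hybridisation between them cannot be told apart from signal of each. Bmp8a read -3.37, -2.64 and -3.04 in WT and -4.61, -4.73 and -4.47 in Glis3KO2. The Glis3KO2 arrays were all lower, with a difference of -1.59 (SE 0.21, limma adjusted p = 0.00109). Bmp8b read -4.71, -4.01 and -4.32 in WT against -5.36, -5.16 and -5.83, again without overlap, and its difference was -1.10 (SE 0.25, limma adjusted p = 0.00708). Under normexp background correction the Bmp8b difference was -0.31 and its call was lost (limma adjusted p = 0.325). Bmp5 was also lower at -0.94, but it was above background on 1 of 3 Glis3KO2 arrays, the groups overlapped, and its call was kept in only 5 of 16 alternative analyses. Bmp3, a BMP that antagonises others, differed by 0.19 and was not called.

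Among the GDF ligands 3 were lower, 1 higher and 3 not called of 7 tested. Gdf9, best known as an oocyte factor for ovarian follicle growth, measured 1.76, 1.94 and 1.84 in WT and -0.91, -0.55 and 0.57 in Glis3KO2. Every Glis3KO2 array was below every WT array, array 3 least, and the difference of -2.14 (SE 0.37, limma adjusted p = 0.0023) was the largest drop among the members. Gdf11, a ligand close to myostatin, read -5.22, -4.92 and -5.09 against -6.64, -6.57 and -5.50, a difference of -1.16 (SE 0.32, limma adjusted p = 0.0149), with 1 of the Glis3KO2 arrays not above background. The Gdf11 call was lost in 3 of 16 alternative analyses, in which its difference was as small as -0.18. Gdf5, a joint-forming ligand, had a difference of -0.52, a call lost in 9 of 17 alternative analyses. Gdf15, a stress-induced member, was the only GDF called higher at 4 weeks, at 1.95. Gdf1, whose transcript is shared with the ceramide synthase gene Cers1, Gdf7 and Gdf10 differed by 0.55, 0.0067 and 1.58 and were not called.

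All 3 TGF-beta ligands were higher in Glis3KO2 at 4 weeks. Tgfb2 had levels of -3.83, -5.0 and -4.36 in WT and of -1.46, -1.71 and -2.29 in Glis3KO2. The genotypes were separated on every array, by 2.58 (SE 0.35, limma adjusted p = 0.00108), a 5.98-fold difference. Tgfb3 read 1.33, 1.08 and 1.24 against 3.58, 3.97 and 3.43, and its difference of 2.44 (SE 0.19, limma adjusted p = 0.000495) came with a narrow spread in both groups. Tgfb1 was higher by 1.46. The same probes gave 0.42 and 0.73 for Tgfb2 and Tgfb3 at 1 week and -0.12 for Tgfb1, none of them called.

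**Figure D2:**
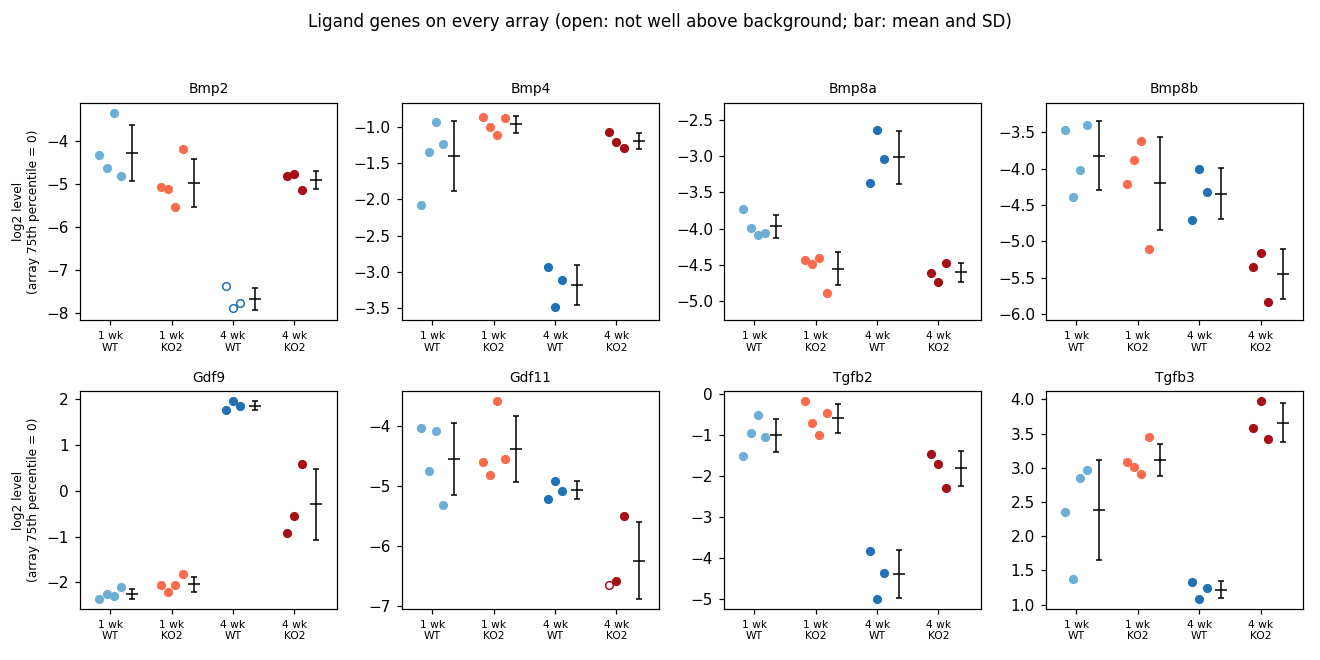
Log2 level of 8 ligand genes on every array (vertical axis, 75th percentile of each array at 0) in the 4 groups along the horizontal axis, where KO2 stands for Glis3KO2. Open circles were not well above background, and the bar gives mean and SD over 4 arrays at 1 week and 3 at 4 weeks. Bmp2, Bmp4, Tgfb2 and Tgfb3 drop from 1 to 4 weeks in WT and stand higher in Glis3KO2 at 4 weeks, whereas Gdf9 and Bmp8a show the opposite order.

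Type I receptors were mostly higher at 4 weeks, with 4 higher, 1 lower and 1 not called of 6 tested. Bmpr1a, the main BMP type I receptor, differed by 1.73, Acvrl1, the endothelial receptor ALK1, by 0.89, Acvr1 by 0.81 and Tgfbr1 by 0.78. The Acvrl1 call was lost in 7 of 17 alternative analyses and the Acvr1 call in 3 of 17. Acvr1c, a receptor for nodal and some activins, was lower with a difference of -0.71, a call that was kept in only 6 of 17 alternative analyses. Acvr1b, the main activin type I receptor, differed by 0.011 and was not called, while its other probe gave -0.56 (limma adjusted p = 0.0189 over 31382 probes).

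For Tgfbr1, the TGF-beta type I receptor, the reading depended on the probe. The brightest probe, at chr4:47428363-47428422 (mouse build mm7, as the file headers give it), read -0.14, -0.36 and -0.25 in WT and 0.63, 0.65 and 0.32 in Glis3KO2 at 4 weeks, and its difference was 0.78 (SE 0.16, limma adjusted p = 0.00408). The other probe matched chr4:47420840-47424498, so that its 60 bases are split over 3659 bases of genome, and 1 of its 3 forward frames has no stop codon. It read -0.92, -0.61 and -0.56 in WT and -3.29, -3.82 and -2.71 in Glis3KO2, the opposite order without overlap. Fitted as a row of its own it gave -2.58 (SE 0.29, limma adjusted p = 0.000679 over 31382 probes) between genotypes and 3.85 from 1 to 4 weeks in WT, where the brightest probe gave -0.41. Both probes are assigned to the same RefSeq transcript, and the direction for Tgfbr1 therefore holds for a probe and not for the gene. The sequence is shown because it is the reading on which the direction turns.
Tgfbr1 split probe: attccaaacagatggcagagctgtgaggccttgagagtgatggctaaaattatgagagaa

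Type II receptors and co-receptors were higher with 1 exception. Bmpr2, the BMP type II receptor, read 0.12, -0.37 and 0.07 in WT and 2.52, 2.31 and 1.63 in Glis3KO2 at 4 weeks. No arrays overlapped, the difference was 2.21 (SE 0.27, limma adjusted p = 0.000865), and its other 2 probes gave 1.51 and 2.39. Tgfbr2, the TGF-beta type II receptor, differed by 1.73 on its brightest probe and 0.59 on another. A further, dimmer Tgfbr2 probe gave -2.06 and was too dim to test, above background on 2 WT arrays and 0 Glis3KO2 arrays. With the mean of all probes the Tgfbr2 difference was 0.085 and its call was lost (limma adjusted p = 0.751). Acvr2b differed by 1.11, the co-receptor betaglycan, Tgfbr3, by 1.89, and Tgfbrap1, whose product associates with the TGF-beta receptor, by 1.22. The activin receptor Acvr2a was lower: it read -1.37, -1.14 and -1.36 in WT and -2.18, -2.40 and -1.97 in Glis3KO2, without overlap, a difference of -0.90 (SE 0.17, limma adjusted p = 0.00309). A dimmer Acvr2a probe gave 0.77 in the opposite direction and was not called at an adjusted p of 0.0554.

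Of the 8 SMADs 5 were higher and 3 lower. Among the BMP-arm receptor SMADs, Smad1 and Smad9 were lower, by differences of -1.08 and -1.66, and Smad5 was higher by 0.51, a call lost in 7 of 17 alternative analyses. Both TGF-beta-arm SMADs were higher, Smad2 by 0.59 and Smad3 by 3.28, and the shared partner Smad4 by 1.78. The Smad2 call was lost in 5 of 17 alternative analyses. The inhibitory SMADs took opposite directions, Smad7 higher by 2.25 and Smad6 lower by a difference of -2.01.

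Smad3 had the largest difference of all members, 9.74-fold higher in Glis3KO2. Its levels were -2.50, -2.90 and -2.60 on the WT arrays and 1.06, 0.82 and -0.042 on the Glis3KO2 arrays at 4 weeks. The genotypes did not overlap, with Glis3KO2 array 3 lowest of its group (SE of the difference 0.30, limma adjusted p = 0.000562). At 1 week Smad3 read 0.61, 0.67, 0.55 and 0.60 in WT, so that the 4-week WT arrays stood far below the younger ones and the 4-week Glis3KO2 arrays on both sides of them. All 3 Smad3 probes were higher, by 3.28, 3.16 and 2.27. Smad7 read -4.09, -4.27 and -4.12 in WT and -1.88, -1.57 and -2.26 in Glis3KO2. Here the Glis3KO2 arrays were higher than WT on every array but did not reach the 1-week levels between -0.085 and 0.40 (SE 0.20, limma adjusted p = 0.000551).

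Smad6 read 0.61, 0.60 and 0.70 in WT and -1.78, -1.81 and -0.52 in Glis3KO2 at 4 weeks. The groups did not overlap, with Glis3KO2 array 3 nearest to WT (SE 0.35, limma adjusted p = 0.00243). Smad9 read -3.43, -3.39 and -3.42 in WT and -5.23, -5.26 and -4.71 in Glis3KO2. WT arrays were almost equal and all above Glis3KO2 (SE 0.19, limma adjusted p = 0.000717). A dimmer Smad9 probe gave 1.32 and was not called (limma adjusted p = 0.18), with 1 Glis3KO2 array at -3.26 and the others at -5.92 and -6.56. Both Smad9 probes are shown to let the readings be told apart: the brightest lies at chr3:54918433-54918492 and the dimmer one matches chr3:54915490-54918419 of mm7, split over 2930 bases.
Smad9 brightest probe: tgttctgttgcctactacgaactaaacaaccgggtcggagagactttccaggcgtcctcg
Smad9 dimmer probe: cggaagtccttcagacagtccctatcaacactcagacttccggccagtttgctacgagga

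**Figure D3:**
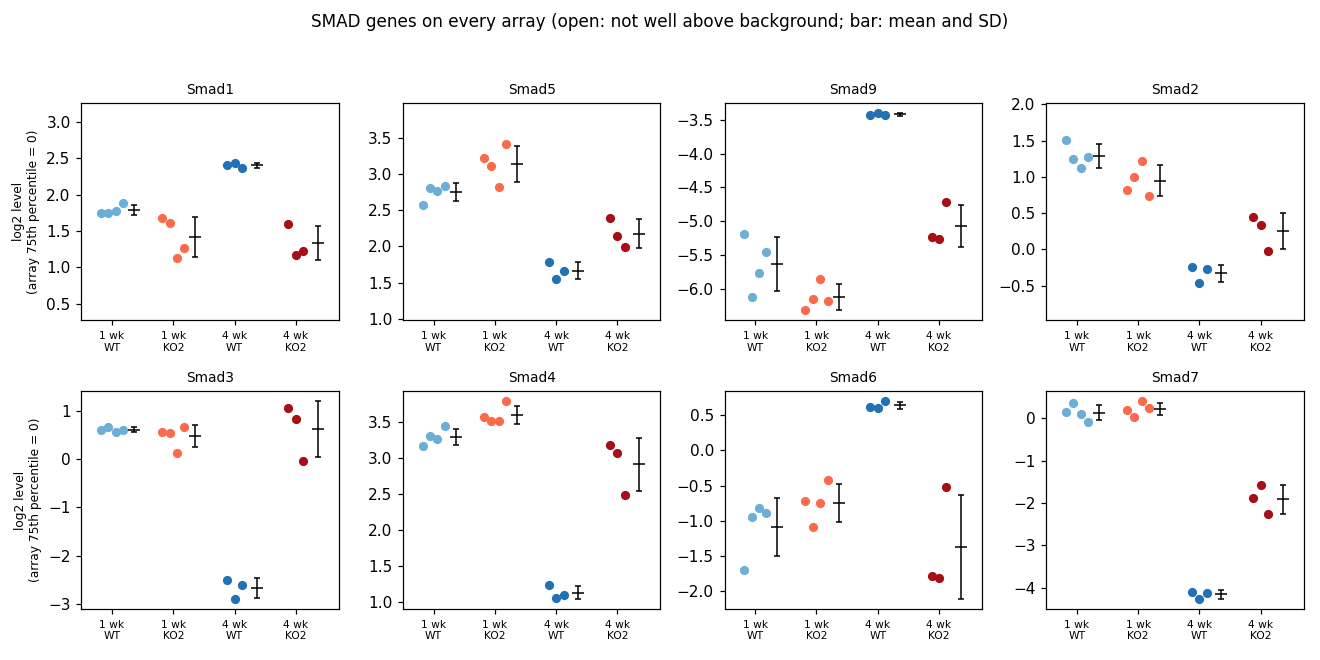
Log2 level of the 8 SMAD genes on every array (vertical axis, 75th percentile of each array at 0) in the 4 groups along the horizontal axis, where KO2 stands for Glis3KO2; circles are arrays and the bar gives mean and SD. Smad3, Smad4 and Smad7 fall from 1 to 4 weeks in WT and are higher in Glis3KO2 at 4 weeks, whereas Smad1, Smad9 and Smad6 rise in WT and are lower in Glis3KO2.

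Smad3 and Smad6 start 264 kb apart on chromosome 9; Smad3 was higher and Smad6 and Smad9 were lower. The 250 bases before the start of each gene are given from RefSeq (build GRCm38.p6), on the minus strand at chr9:63757995-63758244 for Smad3 and chr9:64022060-64022309 for Smad6, and on the plus strand at chr3:54755332-54755581 for Smad9. They are shown because these SMADs moved in opposite directions. They were searched on both strands for the GLIS core TGGGGGGT, the cAMP response element TGACGTCA, the SMAD palindrome GTCTAGAC and the GC-rich SMAD site GGCGCC, with matches in capitals.
Smad3 upstream: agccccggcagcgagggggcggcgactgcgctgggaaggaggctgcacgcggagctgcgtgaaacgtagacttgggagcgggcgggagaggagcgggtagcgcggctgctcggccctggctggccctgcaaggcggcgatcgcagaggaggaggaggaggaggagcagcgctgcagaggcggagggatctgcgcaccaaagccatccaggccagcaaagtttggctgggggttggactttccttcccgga
Smad6 upstream: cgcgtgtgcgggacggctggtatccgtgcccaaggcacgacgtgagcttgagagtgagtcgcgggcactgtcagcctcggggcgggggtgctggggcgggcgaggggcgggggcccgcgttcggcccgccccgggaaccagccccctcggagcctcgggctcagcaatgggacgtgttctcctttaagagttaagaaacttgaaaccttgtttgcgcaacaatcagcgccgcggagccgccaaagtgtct
Smad9 upstream: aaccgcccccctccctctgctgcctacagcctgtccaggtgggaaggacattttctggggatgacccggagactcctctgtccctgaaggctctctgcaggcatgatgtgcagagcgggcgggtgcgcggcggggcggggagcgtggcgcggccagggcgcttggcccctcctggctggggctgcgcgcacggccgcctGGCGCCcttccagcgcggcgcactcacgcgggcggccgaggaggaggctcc

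The Smad9 stretch held 1 GC-rich SMAD site, and the Smad3 and Smad6 stretches held none of the 4 motifs. Over all 32851 promoters of the table, 1.36% held the GLIS core, 1.55% the cAMP response element, 0.167% the SMAD palindrome and 9.59% the GC-rich SMAD site. Of 42 promoters listed for 33 members outside chromosome 18, 0 held any of the first 3 motifs and 8 held the GC-rich site. Smad2, Smad4 and Smad7 lie on chromosome 18 and were left out, whereas the set of all promoters kept that chromosome. Members' promoters were rich in G and C, with a median of 64.6% against 52.4% over all promoters. That of members higher at 4 weeks was 68.4% (20 promoters) and that of members lower was 66% (10 promoters).

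The 3 remaining genes carry the names but are not ligands, receptors or SMADs. Bmp1, a metalloprotease that processes procollagen, was higher by 2.13 at 4 weeks, Bmp2k, a kinase induced by BMP2, by 1.55, and the focal adhesion gene Tgfb1i1 by 1.32. The other, dimmer Bmp1 probe was higher by 0.64. For Bmp2k 3 of its 4 probes were higher and 1 gave -0.88, with an adjusted p of 0.00704 when probes were tested singly.

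Other genes of the pathway were taken from 5 lists, whose counts at 4 weeks stand beside 35.1% higher and 34.1% lower over all genes. Of 17 tested secreted antagonists and carriers 11 were higher and 1 lower (median 1.62), among them the activin antagonist Fst at 3.49 and the BMP antagonist Nbl1 at 3.15, with Sostdc1 the lower one at -1.89. Of 15 genes of latent TGF-beta binding and ligand processing 11 were higher and 1 lower (median 1.76), among them the integrin subunits Itgb8 at 3.21 and Itgav at 2.48, which release active TGF-beta, and the protease Furin at 2.68, while Fbn2 was lower at -1.76. Other ligands and receptors of the superfamily were higher for 9 and lower for 4 of 16 tested (median 1.03), with Rgma at 2.32, Inhba at 2.13 and Rgmb at 2.12 against Hfe2 at -2.10, Cfc1 at -1.55 and Inhbc at -0.84. The intracellular regulators of SMAD signalling were split, 11 higher and 8 lower of 25 (median 0.49): Ctdsp1 at 1.75, Tgif2 at 1.55 and Nedd4l at 1.32 against Map3k7, the kinase TAK1, at -1.67, Smurf1 at -1.28 and Strap at -1.10. Of 22 transcriptional targets 13 were higher and 5 lower (median 0.64). The targets named by the largest differences were Ctgf at 3.19, Tgfbi at 2.68 and Bhlhe40 at 2.68, and Dlx5 at -3.20, Runx2 at -2.27 and Atoh8 at -2.06. These medians stand beside the 0.026 of all genes. Several marker lists moved the same way as the higher genes: Sertoli cells (16 of 18 higher, median 2.01), peritubular cells (7 of 9, median 1.27), macrophages (10 of 12, median 1.11) and endothelial cells (5 of 9, median 1.09). Leydig cell markers were split, 4 higher and 5 lower of 12 (median -0.67). The part of these cell types was not tested. The lists share genes: Amh, Inha and Inhbb are also on the Sertoli list and Eng on the endothelial list.

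**Figure D4:**
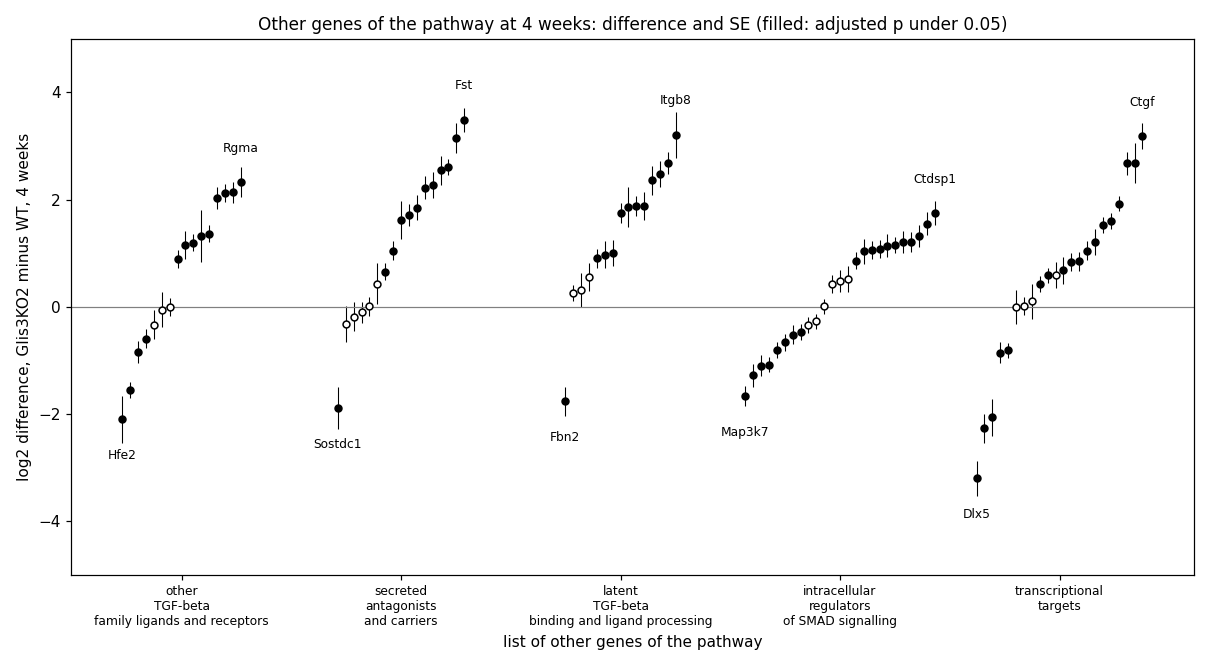
Log2 difference, Glis3KO2 minus WT at 4 weeks, with its standard error (vertical axis) for the genes of 5 lists of other pathway genes (horizontal axis), ordered within each list by size. Filled points had an adjusted p under 0.05, and the gene at each end of a list is named: the antagonists run from Sostdc1 at -1.89 to Fst at 3.49 and the targets from Dlx5 at -3.20 to Ctgf at 3.19.

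Glis3KO2 array 3 at 4 weeks stood nearest to WT for 32 of the 36 members called, and for 85% of 14754 called genes. It lay on slide 5 with WT array 2, whereas Glis3KO2 arrays 1 and 2 lay on slide 4 with WT arrays 1 and 3. The part of the slide in this was not tested. Without Glis3KO2 array 3, 27 members were called higher and 10 lower. Leaving out WT array 2 or Glis3KO2 array 2 left 7 members called lower, against 11 with all arrays.

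At 1 week few members passed the test. Of 43 members tested, 1 was called, Bmp8a, or 2.33% against 10% of the 22678 gene names tested (3.9% higher and 6.14% lower). When probes were tested singly, a dimmer Smad5 probe was also lower, at -0.79 (limma adjusted p = 0.0431 over 33710 probes). The brightest Smad5 probe gave 0.39 in the opposite direction and was not called. Bmp8a had levels of -3.73, -4.00, -4.08 and -4.06 in WT and of -4.43, -4.49, -4.40 and -4.89 in Glis3KO2. All Glis3KO2 arrays were below all WT arrays, and the difference was -0.58 (SE 0.15, limma adjusted p = 0.0478), a 1.5-fold decrease. That p lay close to the threshold, the call was lost in 15 of 20 alternative analyses, and within slide 1 and slide 2 the difference was -0.50 and -0.46. Glis3KO2 array 4, the lowest at -4.89, was the only array on slide 3, scanned on another day, and enters neither value. At an unadjusted p under 0.05 there were 16 members, and 8 had genotypes that did not overlap, where the background of non-overlapping genes was 27.3% (15.3% higher and 12% lower).

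The members nearest to a call at 1 week were receptors and ligands of both arms. Bmpr1a had a difference of 0.40 without overlap (SE 0.11, limma adjusted p = 0.0562), and -0.51 on its other probe. Acvrl1 had a difference of 0.55, also without overlap (limma adjusted p = 0.0672). The type II activin receptor Acvr2b differed by -0.53 (adjusted p = 0.0676), Bmp3 by 1.24 (adjusted p = 0.0679) and Gdf15 by 1.496 (adjusted p = 0.0742). For Gdf15 the WT arrays ran from -1.58 to 0.12 and the Glis3KO2 arrays from -0.20 to 1.68, so they overlapped, and the difference was 1.89 within slide 1 and 0.16 within slide 2. Scaling by the array median moved all genes up by 0.26 at 1 week and called Acvrl1, Bmp3, Bmpr1a and Gdf15 higher and 0 members lower. Over all genes that scaling called 2886 higher and 1013 lower, against 885 and 1392. Without WT array 4, 3 members were called lower; without Glis3KO2 array 2, 2 were called higher. Bmp8a was not called without WT array 1, 2 or 3 or without Glis3KO2 array 1, 2 or 4, with adjusted p between 0.0611 and 0.123 in limma. At this age 10 of 12 tested markers of undifferentiated spermatogonia were lower in Glis3KO2, and 6 of 18 Sertoli, 6 of 12 macrophage and 5 of 12 Leydig cell markers were higher. Their part in the Bmp8a and Bmpr1a values was not tested.

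In the wider pathway a few genes were called at 1 week, where 3.9% of all genes tested were higher and 6.14% lower. The Sertoli hormones Amh at 0.97, Inha at 0.82 and Inhbb at 0.73 were the leading ones among 5 higher and 1 lower (Lefty2, -0.91) of 15 other ligands and receptors. Fst was lower at -0.96, which is the reverse of its 4-week difference of 3.49, and Htra1 and Bambi were higher at 0.87 and 0.60, giving 2 higher and 1 lower of 17 antagonists and carriers. Itgb8 and Pcolce were higher at 0.90 and 0.70 and Mmp9 lower at -2.45 in the list of latent TGF-beta and processing genes, 15 tested. Rnf111, a ligase that degrades inhibitory regulators, was the 1 called of 25 intracellular regulators, at 1.45. Among 21 targets 4 were lower, including Msx2 at -1.92 and Id4 at -0.85, and Tsc22d1 was the 1 higher, at 0.39. Amh, Inha and Inhbb are also on the Sertoli marker list, and Id4 is also on that of undifferentiated spermatogonia.

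Between 1 and 4 weeks most of the family fell in WT testis, over the weeks in which meiotic and postmeiotic germ cells come to make up much of the tissue. Of 43 members tested 32 were lower and 7 higher at 4 weeks, 90.7% called against 81% of 23683 gene names tested (31.3% higher and 49.7% lower). The ages did not overlap for 38 members, where the background was 80.8% (31.8% higher and 49% lower). The median difference was -1.77 over the members and -0.51 over all genes. Spermatid markers rose over this interval (13 of 13 for round spermatids) and 15 of 18 Sertoli markers fell.

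The largest falls were in Smad7, Bmp1, Acvrl1 and Tgfb2. Smad7 went from 0.16, 0.37, 0.11 and -0.085 at 1 week to between -4.27 and -4.09 at 4 weeks, a difference of -4.30 (SE 0.12, limma adjusted p = 1.81e-07). Bmp1 went from 1.99, 2.41, 2.49 and 2.41 to -1.25, -1.48 and -1.48, a difference of -3.73 (SE 0.14, limma adjusted p = 5.52e-07). Its dimmer probe gave a difference of -1.80. Acvrl1 went from -0.62, -0.22, -0.17 and -0.28 to -3.67, -3.93 and -3.71, a difference of -3.45 (SE 0.14, limma adjusted p = 6.36e-07). Tgfb2 fell from -1.51, -0.96, -0.52 and -1.06 at 1 week, with a difference of -3.39 (SE 0.33, limma adjusted p = 5.13e-05). None of these 4 genes had overlapping ages. Bmp2, Gdf6 and Bmpr1b fell to background at 4 weeks, at least 5.09-fold, 2.11-fold and 1.29-fold.

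Counts for the wider pathway with age stand beside 31.3% higher and 49.7% lower over all genes tested. In that pathway the 15 tested genes of latent TGF-beta binding and processing all fell with age, led by Itgb8 at -5.33, Fbn1 at -4.33 and Mmp2 at -4.22. Of 17 antagonists and carriers 14 fell, among them Bgn at -3.35 and Fst at -3.22. Of 16 other ligands and receptors 8 fell, such as the activin subunit Inhba at -5.76 and the hormone Amh at -4.66, and 3 rose, with Hfe2 at 5.87. Regulators split into 9 higher and 12 lower of 25, with Ski at -3.09 and Smurf1 and Strap at 1.53 and 1.48. Targets split into 6 higher, including Runx2 at 4.74, Dlx5 at 3.69 and Atoh8 at 3.18, and 15 lower of 22, including Pmepa1 at -3.14.

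By their brightest probes, the 7 members that were higher at 4 weeks in WT were Gdf9, Smad9, Smad6, Acvr2a, Bmp8a, Gdf5 and Smad1. Gdf9 went from -2.35, -2.25, -2.30 and -2.10 to 1.76, 1.94 and 1.84, a 17.1-fold rise (difference 4.10, SE 0.095, limma adjusted p = 7.96e-08). Smad9 went from -5.20, -6.12, -5.77 and -5.46 to between -3.43 and -3.39, a difference of 2.23 (SE 0.21, limma adjusted p = 5.05e-05). Smad6 rose by 1.72 from -1.69, -0.95, -0.81 and -0.88 (SE 0.22, limma adjusted p = 0.000234). Acvr2a rose by 1.19 from -2.15, -2.56, -2.61 and -2.61 (SE 0.14, limma adjusted p = 0.000156). The ages did not overlap for these genes. Dimmer probes fell with age for Acvr2a, by a difference of -1.63, and for Smad9, by a difference of -0.70 (limma adjusted p = 0.0154 over 35031 probes). Bmp8a, Gdf5 and Smad1 were higher by 0.95, 0.69 and 0.61.

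Each of the 7 members that rose with age was lower in Glis3KO2 at 4 weeks, by differences of -2.14 for Gdf9, -1.66 for Smad9, -2.01 for Smad6, -0.90 for Acvr2a, -1.59 for Bmp8a, -0.52 for Gdf5 and -1.08 for Smad1. The age comparison and the 4-week genotype comparison share the 4-week WT arrays, so their values are given side by side and are no independent evidence of each other. Germ cell marker lists ran the same way. With age 16 of 16 spermatocyte, 13 of 13 round spermatid and 11 of 11 elongating spermatid markers rose. In Glis3KO2 at 4 weeks 15, 13 and 11 of them were lower. The share over all genes that rose with age was not counted. Other members called lower at 4 weeks in Glis3KO2 did not rise with age by the test: Bmp8b, Gdf11, Bmp5 and Acvr1c had age differences of -0.53, -0.52, -0.34 and -0.41, none called.

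Whether the genotype difference itself changed with age was tested over all 14 arrays. It did for 26 of 43 members, 21 upward and 5 downward, or 60.5% against 51% of 23763 gene names tested (29.3% upward and 21.6% downward). Smad3 changed upward by 3.42. Bmp2 was also called upward, with a measured change of 3.46 that rests on 4-week WT arrays at background and was 1.27 under normexp background correction. The 5 downward ones were Gdf9 at -2.36, Smad6 at -2.35, Smad9 at -1.16, Bmp8a at -1.005 and Smad1 at -0.70. The median was 1.01 over the members and 0.24 over all genes. Scaling by the array median shifted this change by -0.34 over all genes and called 4750 genes upward and 6536 downward, against 6974 and 5136, with 10 members downward in place of 5. Without 1-week WT array 1, 8 members were called downward. Gdf15 and Acvrl1, near a call at 1 week and called at 4 weeks, gave 0.45 and 0.35 and were not called here.

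How far a direction depends on the probe was counted over the 23 further probes of members that could be compared. Of these, 17 had the same sign as the brightest probe at 4 weeks, 18 in the WT age comparison and 13 at 1 week. At 4 weeks the readings that ran opposite and were called in both directions when probes were tested singly included Tgfbr1, Bmp2k and Smad5, of which another probe gave -0.77 beside 0.51 for the brightest.

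**Figure D5:**
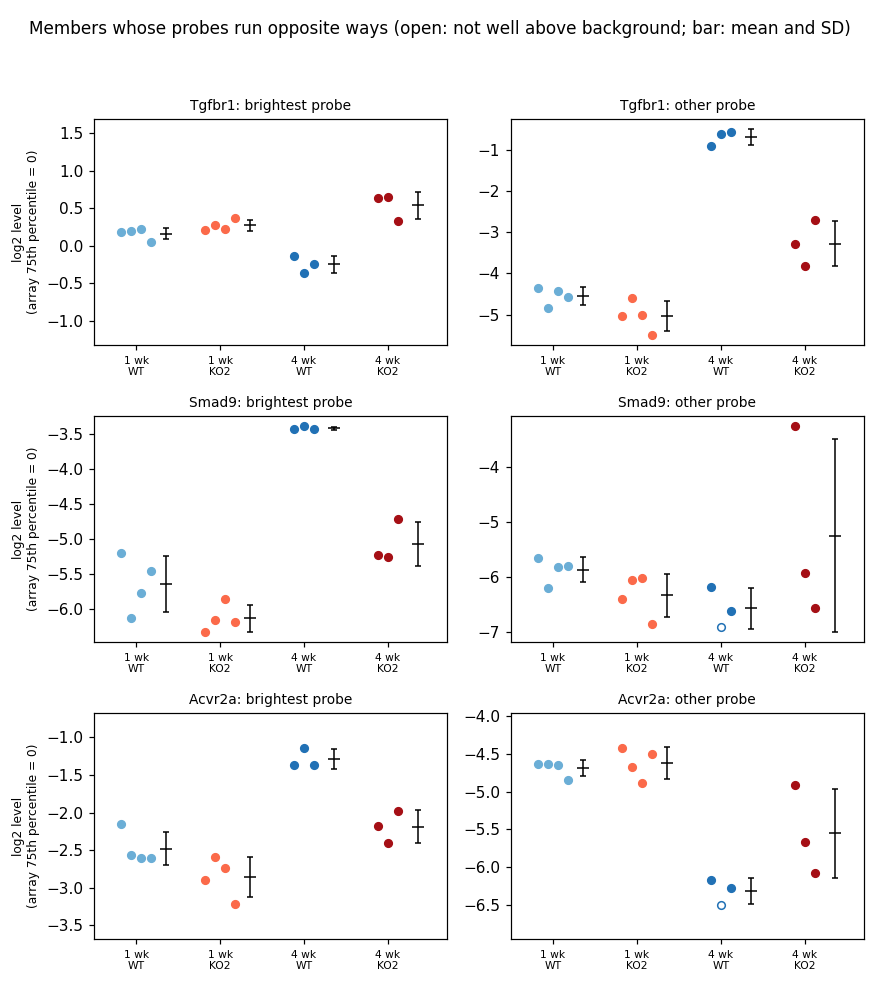
Log2 level on every array (vertical axis, 75th percentile of each array at 0) for the brightest and for another probe of Tgfbr1, Smad9 and Acvr2a in the 4 groups (horizontal axis, KO2 for Glis3KO2), with open circles for readings not well above background and bars for mean and SD. In Tgfbr1 the other probe rises from 1 to 4 weeks in WT and is lower in Glis3KO2, the reverse of the brightest probe, and the dimmer Smad9 probe has 1 array at -3.26 that stands apart.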

How the data were processed

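Total RNA of whole testis was labelled with Cy3 and hybridised to 1-colour Agilent mouse arrays, per the labels' protocols, 14 arrays in all. The deposited values are scanner output of Agilent Feature Extraction 9.5, per the submitters' processing notes; the gProcessedSignal intensity used here is background-subtracted per the file headers and was deposited without normalization between arrays. Probe coordinates in the files are of build mm7.

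From these, log2 intensity minus each array's 75th percentile was computed, non-uniform spots were dropped, replicate spots of a probe were combined as their mean, and the probe brightest over the 4 groups stood for its gene name. Genes were tested under the names given with the array. Names updated by accession, symbol or synonym through the RefSeq table served only to find genes of the lists and promoters. A gene was tested when 3 or more arrays of any compared group read well above background. Tests used limma 3.58.1 in R 4.3.3 (lmFit and eBayes), with Benjamini-Hochberg adjustment over all gene names and a threshold of 0.05; the scripts were tested on simulated data. Each comparison was fitted on its own groups, and the change of the genotype difference on all 14 arrays. Where a group was at background on every array, the fold is a lower bound against that group's detection floor. Alternatives were median and quantile scaling, normexp with an offset of 50, other filters, the mean of all probes, the slide and the replicate number as blocks, probes without a telomeric repeat, and each array left out. The probe used was counted as holding that repeat for 6 members: Bmp1, Bmp3, Bmp10, Bmpr1a, Bmpr2 and Tgfb1i1.

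The 48 members and the lists of pathway and marker genes were chosen with earlier results of these data known. Every array's value is given for members called at 1 week, for the 6 largest differences per direction among members called at 4 weeks and for the 4 largest per direction with age, and up to 3 called genes are named per pathway list and direction. Bmp4, Bmp7, Bmp5, Gdf15 and the Tgfbr1 probes were singled out after their values were seen.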

Additional observations from a re-analysis of the deposited data

Results flagged for a closer look

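The genotype difference changed between 1 and 4 weeks, by the interaction term over all 14 arrays, for 26 members. In log2 units the change was downward for Gdf9 (-2.36), Smad6 (-2.35), Smad9 (-1.16), Bmp8a (-1.005) and Smad1 (-0.70). Among ligands it was upward for Bmp2, measured at 3.46 against 4-week WT arrays at background and 1.27 under normexp, and for Tgfb2 (2.16), Tgfb3 (1.71), Tgfb1 (1.58), Bmp4 (1.55) and Bmp7 (1.41). Among receptors and associated genes it was upward for Tgfbr3 (1.87), Bmpr2 (1.84), Tgfbr2 (1.73), Acvr2b (1.64), Acvr1 (1.35), Bmpr1a (1.33), Tgfbrap1 (1.28) and Tgfbr1 (0.67, brightest probe). Among SMADs it was upward for Smad3 (3.42), Smad7 (2.17), Smad4 (1.48) and Smad2 (0.93), and among the remaining genes for Bmp2k (2.15), Bmp1 (1.84) and Tgfb1i1 (1.01). The Bmp1 call was lost, at a change of 0.39, when probes with the telomeric repeat were left out.

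Single arrays stood far from the other 3 of their group in 8 of 84 groups of 4 arrays, where chance marks about 1 in 20. The first 1-week WT array was apart for 4 genes: Smad6 at -1.69 (others -0.95 to -0.81), Bmp1 at 1.99 (others 2.41 to 2.49), Tgfb1i1 at 1.54 (others at 1.95 or above) and Acvr2a at -2.15 (others -2.61 to -2.56). The second WT array was apart for Acvr1b at 0.94 (others 0.82 to 0.83) and the fourth for Tgfbr3 at -4.27 (others -3.94 to -3.87). In Glis3KO2 at 1 week the third array was apart for Tgfb1 at -2.43 (others -2.13 to -2.08) and the fourth for Gdf1 at 2.53 (others 2.14 to 2.17).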

How the results depend on the processing

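Calls kept in every alternative that could be run were 0 of 1 at 1 week, 22 of 36 at 4 weeks, 35 of 39 with age and 18 of 26 for the change of the genotype difference. At 1 week, 0 members were called higher and 1 lower; median scaling gave 4 and 0, quantile normalization 1 higher, testing probes above background on every array 1 higher, an intensity trend with robust moderation 3 higher and 1 fit of all arrays 2 higher, while normexp, no filter, the mean of all probes and the slide block gave 0 lower. At 4 weeks normexp gave 6 lower in place of 11. For the change of the genotype difference, 5 downward became 10 under median scaling and 9 under quantile normalization. Leaving out 1 array gave 0 to 2 higher and 0 to 3 lower at 1 week, 20 to 27 and 7 to 10 at 4 weeks, 7 and 30 to 35 with age, and 19 to 22 and 4 to 8 for the change. Direction reversed under normexp for Acvr1c (0.020) and Bmp5 (0.044) at 4 weeks, within slide 5 for Bmp5 (0.0059), and with the mean of all probes for Tgfbr1 (-0.90 at 4 weeks, 1.72 with age, -0.71 for the change), Acvr2a with age (-0.0048) and Smad9 for the change (0.31), where probes of 1 gene disagree. The cause of the other changes was not tested. Leaving out WT and Glis3KO2 array 4 of week 1 together, chosen after seeing the data, gave 0 higher and 1 lower at 1 week. Normexp shifted the median of all genes by 0.14, 0.11, 0.20 and -0.10 in the 4 comparisons.

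The replicate block gave 0 and 0 members at 1 week (61 genes called higher and 330 lower in place of 885 and 1392), 25 higher and 10 lower at 4 weeks, 7 and 35 with age and 21 and 5 for the change; same-numbered arrays correlated between -0.34 and 0.16, so the numbers give no pairing. With 3 or 4 arrays a group, and 5 members too dim to test at both ages, small differences and dim genes were not resolved.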
